A study of Mus musculus with 4 samples.

Results

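The 30 genes described here encode enzymes and regulators of sterol and fatty acid synthesis, measured in bronchial epithelial cells isolated from mouse lungs. They were chosen by name: probes whose gene name on the array was one of the 30 symbols, with Sc4mol read as Msmo1 and Sc5dl as Sc5d. All 30 were found, on 44 probes, among 26381 genes that were well above background on at least 1 array. The level of a gene is the log2 processed signal of its brightest probe minus the 75th percentile of that array, so a difference of 1 between arrays is 2-fold. The animals were Pla2g3+/+ or labelled Pla2g3-/-, a deletion of the gene for group III phospholipase A2, an enzyme that is secreted and cleaves membrane phospholipids. Each genotype had a control group and an antigen challenged group. The protocol was 10 µg ovalbumin (OVA, the antigen) with 1.3 mg alum in 0.2 ml, injected on days 0 and 14, and then an aerosol of 1% OVA for 30 min on each of days 26, 27 and 28. Lungs were taken 3 h after challenge. Neither the treatment of control mice nor age and strain are given in the sources used here, and a challenge effect may hold an effect of sensitisation. RNA of 4 samples was pooled for each group and hybridised to 1 array, 4 arrays in all.

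Cells make cholesterol from acetyl-CoA by way of mevalonate, squalene and lanosterol. When membrane sterol is low, the escort protein SCAP carries SREBP transcription factors from the endoplasmic reticulum to the Golgi, where they are cut and released to the nucleus. INSIG proteins hold SCAP back when sterol is plentiful. SREBP-2 mainly drives sterol genes, and SREBP-1c mainly drives fatty acid genes. Fatty acid synthesis starts from cytosolic acetyl-CoA and supplies lung epithelium with the acyl chains of membrane lipids and surfactant.

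With 1 array a group, no single difference has a replicate check, and none has a p-value. All 4 arrays lay on 1 slide, each group at its own position, and the effect of position cannot be told apart from that of group. The 75th percentile of signal was 1808 to 1986 intensity units, and every chosen probe of the 30 genes was well above background on 4 of 4 arrays. Intensity units below are given without scaling to this percentile, while differences are scaled, so a small difference can go against the units. The error that the scanner software gave for a difference between 2 arrays was 0.20 to 0.21 for these genes. Repeated spots of 1 probe gave a median SD of up to 0.10 for such a difference. For a small share of those probes, the SD between spots on 1 array was above 0.22 to 0.32, depending on the array. Neither the scanner error nor the SD of repeated spots takes in animals, pools and labelling. The scanner error was nearly the same for dim and bright genes. It thus serves as a fixed yardstick and not as a scatter measured for each gene. Pla2g3 itself went against its labels: its probe read 239 and 254 intensity units in Pla2g3+/+ cells, and 2023 and 4154 in cells labelled Pla2g3-/-. No source used here tells whether that probe lies in the deleted part. The genotype directions below are those of the labels. Defining markers of airway epithelium were present, with 6 of 6 club cell genes and 5 of 5 general epithelial genes well above background on every array.

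The 30 genes were, by their medians, slightly higher than in the Pla2g3+/+ control on 2 arrays, the control labelled Pla2g3-/- and the Pla2g3+/+ challenged array, and lowest on the challenged array labelled Pla2g3-/-. Of the 30 genes, 14 had their highest level on the control array labelled Pla2g3-/-, and 19 had their lowest on the challenged array labelled Pla2g3-/-. Over 23750 genes measured on all arrays, those shares were 27.8% and 38.9%. The range of a gene over the 4 arrays had a median of 0.34 (1.27-fold) for the 30 genes and 0.38 (1.30-fold) for all genes, but 0.32 (1.25-fold) for the 15439 genes at least as bright as the dimmest of the 30. A range of at least 2-fold was reached by 1 of the 30, Scd2, against 11.7% of all genes and 7.77% of those as bright.

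**Figure D1:**
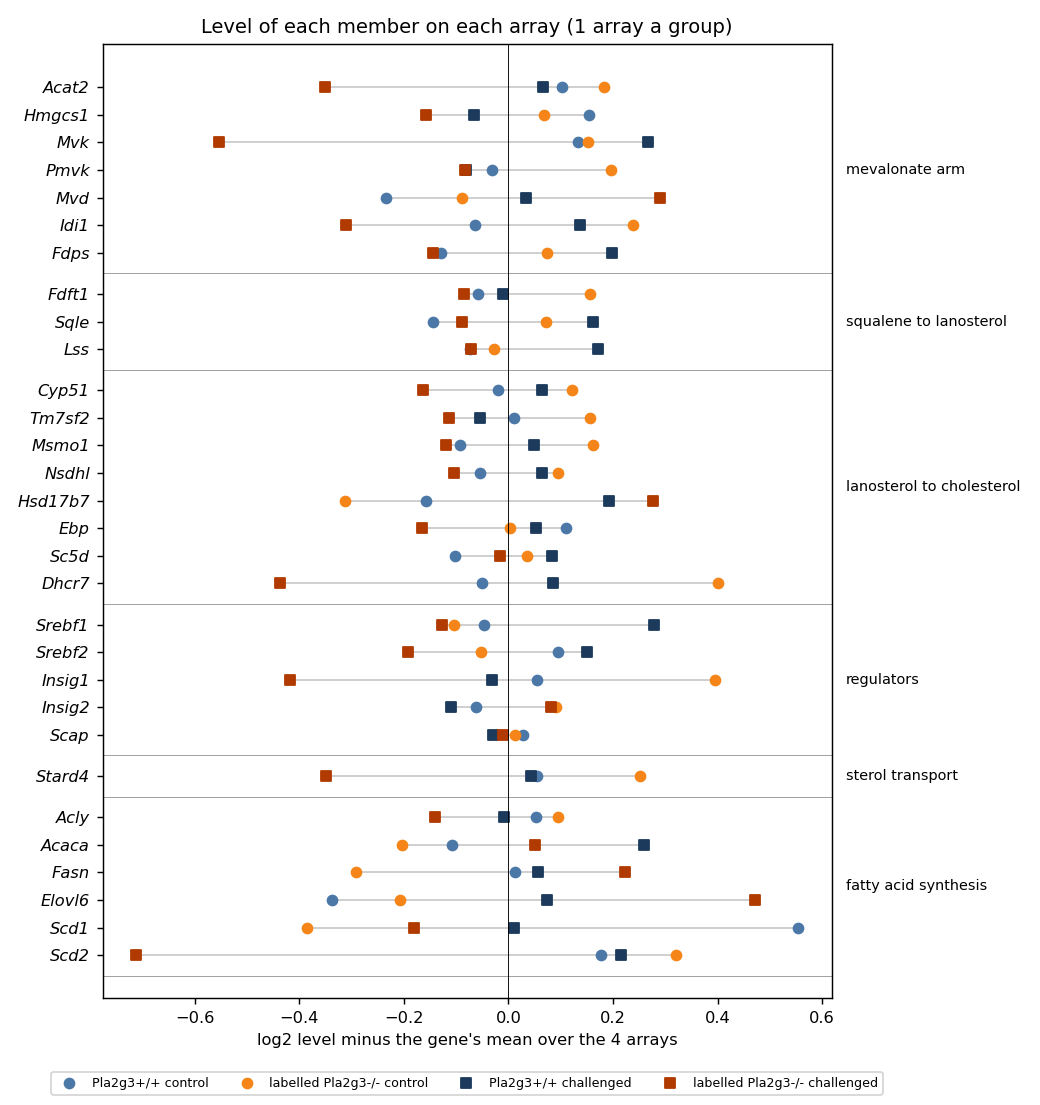
The plot of each gene's 4 array values shows its log2 level minus its own mean over the arrays (x axis), with genes in rows by pathway step and 1 point an array. The challenged array labelled Pla2g3-/- (red squares) is the lowest point for 19 of 30 genes, and Elovl6, Hsd17b7, Mvd and Fasn have their highest point there.

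With challenge in Pla2g3+/+ cells, none of the 30 was at least 1.5-fold higher and none at least 1.5-fold lower, against 3.58% and 4.26% of 24698 genes. At such shares about 1 gene of 30 or none would be counted, so this says little of the 30. The median difference was 0.07 (range −0.54 to 0.41), and the median over all genes was −0.03. Of the 30, 19 were higher and 11 lower, against 45.1% and 54.9% of all genes. In cells labelled Pla2g3-/- the challenged array was lower for 24 of the 30 and higher for 6, with a median of −0.21 (−1.03 to 0.68), beside −0.06 over all genes. There, 2 genes were at least 1.5-fold higher and 5 at least 1.5-fold lower, against 6.42% and 8.72% of 23990 genes. Among 15439 genes at least as bright as the dimmest of the 30, those shares were 4.88% and 6.69%. Those 7 of 30 genes were Elovl6 and Hsd17b7 on the higher side and Scd2, Dhcr7, Insig1, Mvk and Stard4 on the lower side. The share that was lower at all was 57.4% over all genes. Of the 24 genes outside fatty acid synthesis, 22 were lower and 2, Mvd and Hsd17b7, were higher.

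Between the control arrays, 21 of the 30 genes had a higher level and 9 a lower one in cells labelled Pla2g3-/-, with a median of 0.14 (all genes −0.03). None was at least 1.5-fold higher and 1, Scd1, was at least 1.5-fold lower, against 5.76% and 4.89% of 24542 genes. Between the challenged arrays the order was turned: 6 were higher and 24 lower, against 40.2% and 59.8% of all genes. The median of the 30 was −0.20 (all genes −0.05). None was at least 1.5-fold higher and 2, Scd2 and Mvk, were at least 1.5-fold lower, against 6.73% and 6.01% of 24075 genes. These 4 comparisons share arrays in pairs, so their values are given side by side and not as independent results. The challenge effect in cells labelled Pla2g3-/- minus that in Pla2g3+/+ cells had a median of −0.26 (all genes −0.03). On that scale 1 gene was at least 1.5-fold higher and 6 at least 1.5-fold lower, against 6.41% and 7.18% of 23750 genes. The 1 was Scd1, and the 6 were Scd2, Dhcr7, Mvk, Idi1, Insig1 and Stard4, from −0.59 to −1.07.

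**Figure D2:**
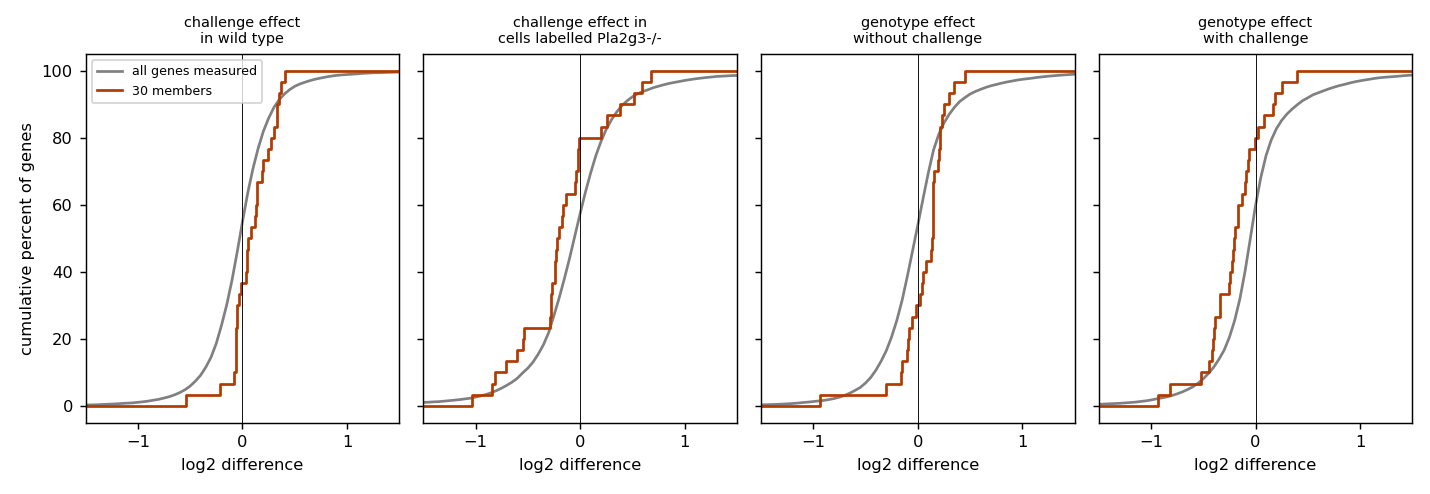
The cumulative plot shows, for 4 comparisons of 2 arrays each, the percent of genes (y axis) at or below a log2 difference (x axis, drawn from −1.5 to 1.5), for the 30 genes (red steps) and all genes measured (grey). The red steps lie right of grey near 0 for challenge in wild type and genotype without challenge (medians 0.07 and 0.14) and left of it for the other comparisons (medians −0.21 and −0.20).

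A result that leans on 1 control array is marked here. With the Pla2g3+/+ control array in place of the control labelled Pla2g3-/-, the median of the 30 genes on the challenged array labelled Pla2g3-/- was −0.066 in place of −0.21. The number at least 1.5-fold lower was then 3 (Scd2, Mvk and Scd1) in place of 5, and the number at least 1.5-fold higher 1 in place of 2. With the other control array, the Pla2g3+/+ challenge median was −0.036 in place of 0.07. The control array with the Pla2g3-/- label had more signal of T cell and thymocyte genes, such as Rag1, Dntt and Ptcra. All 8 of these markers were well above background on every array. Their summed level, as signal over the 75th percentile, was 38.4 there and 1.9 to 3.6 on the other arrays. The summed level of 6 cell cycle genes was 21.8 there and 12.6 to 14.6 elsewhere. The Pla2g3+/+ control array in turn had the most signal of 4 B cell genes. Their summed level was 4.9 on it and 1.8 to 2.1 on the other arrays, so neither control array was free of extra T or B cell signal. The part of those cells in the sterol gene values was not tested.

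The mevalonate arm runs from the joining of acetyl units to farnesyl diphosphate, and 7 of its genes were measured. In cells labelled Pla2g3-/-, 6 of the 7 were lower after challenge, with a median of −0.28. In Pla2g3+/+ cells the median was 0.13, with 4 higher and 3 lower. With the control arrays exchanged, 6 of 7 were lower with the Pla2g3-/- label (median −0.25), and 3 were higher and 4 lower in Pla2g3+/+ cells (median −0.10). Mvk encodes mevalonate kinase, which adds the first phosphate to mevalonate. Its probe (mm9, chromosome 5 from 114910540 to 114910599) read 8600 and 8586 intensity units on the Pla2g3+/+ control and challenged arrays and 8051 and 5321 on those labelled Pla2g3-/-. Thus on this probe 3 arrays lay close together and the challenged array labelled Pla2g3-/- lay below them. The difference was −0.71 for challenge in cells labelled Pla2g3-/- (1.63-fold lower) and −0.82 between the challenged arrays (1.77-fold lower), with a scanner error of 0.20 for either. A second Mvk probe gave −0.63 and −1.04 for the same comparisons. On that probe the control labelled Pla2g3-/- was also below the Pla2g3+/+ control, by −0.25, against 0.02 on the first.

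Mvk shares its promoter region with Mmab, a cobalamin adenosyltransferase gene on the opposite strand, and the stretch between their starts is shown because Mvk was the lowest enzyme of this arm. It lies at chr5:114444028-114444268 on GRCm38.p6, plus strand, from the RefSeq promoter table. Capitals mark CCAAT (the NF-Y box) or its reverse complement ATTGG, and GGGCGG (an Sp1 box) or its reverse complement CCGCCC.
Mvk and Mmab, between the starts: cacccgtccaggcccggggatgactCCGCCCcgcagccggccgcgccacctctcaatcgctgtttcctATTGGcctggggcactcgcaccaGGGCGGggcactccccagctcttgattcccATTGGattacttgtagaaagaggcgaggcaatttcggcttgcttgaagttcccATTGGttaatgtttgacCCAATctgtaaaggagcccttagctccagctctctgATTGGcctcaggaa
This stretch of 241 bases holds 5 NF-Y boxes and 2 Sp1 boxes. Mmab, picked for its place after the values were seen, differed by −0.42 for challenge in cells labelled Pla2g3-/- and by −0.12 between the challenged arrays.

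Promoter sequence was available for 24 of the 30 genes, and the 250 bases before each start were searched. CCAAT, searched on both strands like each motif here, was present for 19 of the 24 genes, against 37.5% of 27025 genes. GGGCGG was present for 20 of the 24, against 35.4%. The E-box CACGTG was present for 5 of the 24, against 6.86%. The classic sterol regulatory element, to which SREBP binds, was in none of the 24 and in 0.0814% of all genes. CACCCCAC, the same element without its first 2 letters, was in 2 of the 24, Hmgcs1 and Acat2, against 2.98% of genes. A gene with several starts was counted when the sequence before any of them held the motif. The surroundings of the core (CACCCCAC) in these 2 genes are shown next, with the core, and in Hmgcs1 1 ATTGG, in capitals, at chr13:119690175-119690262 (plus strand) and chr17:12960859-12960946 (minus strand) of GRCm38.p6, from RefSeq.
Hmgcs1: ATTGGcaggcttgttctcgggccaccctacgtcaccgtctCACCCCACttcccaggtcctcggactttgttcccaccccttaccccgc
Acat2: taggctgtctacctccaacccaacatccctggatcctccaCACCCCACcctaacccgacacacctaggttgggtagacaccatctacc
A match of letters is a description and not a measured binding site.

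Hmgcs1, the synthase that makes HMG-CoA, read 17404 and 13614 intensity units on the Pla2g3+/+ control and challenged arrays and 15157 and 13979 on those labelled Pla2g3-/-. Both challenged arrays were below both controls, by −0.22 and −0.23. Its probe is placed on an unassigned piece of chromosome 13, so a near-identical copy could add to its signal. Acat2, which encodes a cytosolic thiolase that joins acetyl-CoA units, read 216 and 192 on the Pla2g3+/+ arrays and 212 and 158 on those labelled Pla2g3-/-. Its challenge differences were −0.04 and −0.53, with the challenged array labelled Pla2g3-/- the lowest of the 4.

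Idi1 encodes the isomerase that turns isopentenyl diphosphate into its reactive partner. It read 4748 and 4966 intensity units on the Pla2g3+/+ control and challenged arrays and 5404 and 3986 on those labelled Pla2g3-/-. The arrays labelled Pla2g3-/- were thus the highest and the lowest, and the challenge differences were 0.20 and −0.55. The latter was −0.25 against the Pla2g3+/+ control array, and the former −0.10 against the control labelled Pla2g3-/-. Fdps, the synthase of farnesyl diphosphate, differed by 0.33 with challenge in Pla2g3+/+ cells and by −0.22 in cells labelled Pla2g3-/-. Exchanging the control arrays gave 0.12 and −0.016, inside the scanner error. The Fdps probe is placed on chromosome 10 while the gene lies on chromosome 3, so its values may belong in part to a copy. Pmvk, the next kinase after Mvk, differed by −0.05 and −0.28. Mvd, the decarboxylase that follows, went the other way, with 518 and 569 units on the Pla2g3+/+ arrays, 530 and 743 on those labelled Pla2g3-/-, and differences of 0.27 and 0.38.

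**Figure D3:**
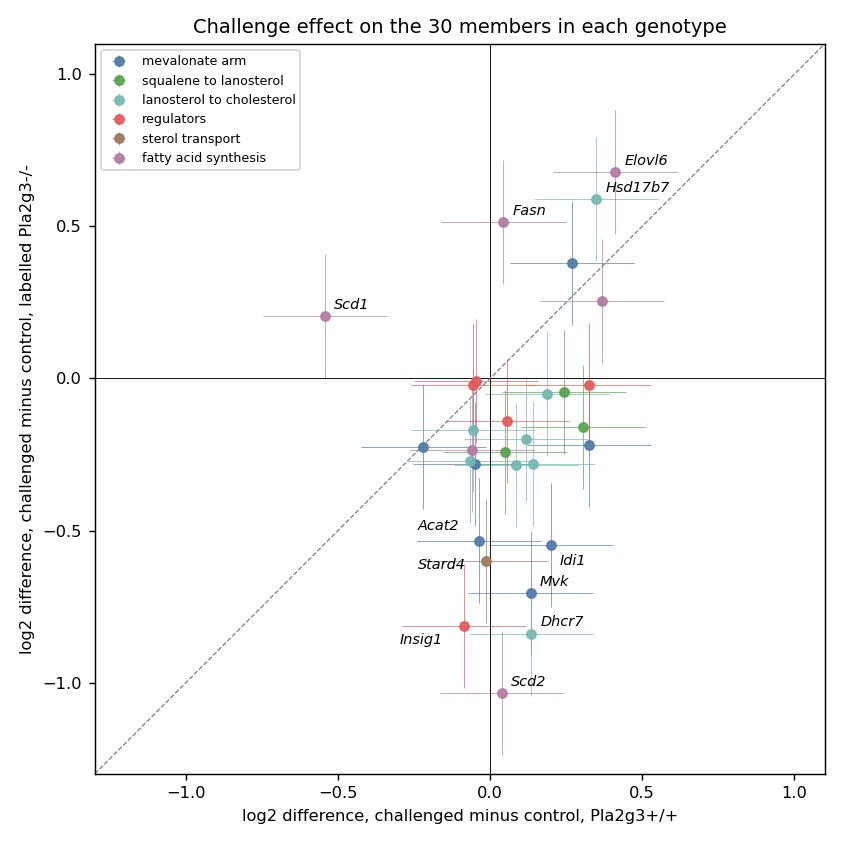
The scatter plot sets the log2 challenge difference in Pla2g3+/+ cells (x axis) against that in cells labelled Pla2g3-/- (y axis) for the 30 genes, with bars for the scanner error (about 0.20) and a dashed line of equal effects. Scd2, Dhcr7, Insig1, Mvk, Stard4, Idi1 and Acat2 lie from −0.53 to −1.03 on the y axis and from −0.09 to 0.20 on the x axis.

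From squalene to lanosterol, 3 of 3 genes were higher with challenge in Pla2g3+/+ cells (median 0.24) and 3 of 3 lower in cells labelled Pla2g3-/- (median −0.16). This rests on the control arrays: with them exchanged, 2 were higher and 1 lower in each genotype, with medians of 0.09 and 0.0022. Sqle, the epoxidase that opens this step and a point of control of the pathway, read 11934 and 13430 intensity units on the Pla2g3+/+ control and challenged arrays. On those labelled Pla2g3-/- it read 12796 and 12353. Its challenge differences were 0.31 and −0.16. The highest and lowest of the 4 Sqle values were 1.24-fold apart. Lss, which closes the ring to lanosterol, differed by 0.24 and −0.04. Fdft1, which joins farnesyl units to squalene, differed by 0.05 and −0.24, and its second, dim probe, with 22.3 units on its lowest array, gave 0.01 and 0.36. The Fdft1 probes are placed far apart on chromosome 14 (mm9, starts 19364899 and 63764562), so they may not read the same locus.

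From lanosterol to cholesterol, 7 of 8 genes were lower after challenge in cells labelled Pla2g3-/- (median −0.23), and 6 of 8 were higher in Pla2g3+/+ cells (median 0.13). With the control arrays exchanged, 6 of 8 were lower with the Pla2g3-/- label (median −0.087), and 3 were higher and 5 lower in Pla2g3+/+ cells (median −0.044). Dhcr7 encodes 7-dehydrocholesterol reductase, which makes cholesterol in the last step of 1 branch. Its probe (mm9, chromosome 7 from 151033874 to 151033933) read 284 intensity units on both Pla2g3+/+ arrays. It read 359 on the control array labelled Pla2g3-/- and 217 on the challenged one. The arrays labelled Pla2g3-/- therefore lay on either side of the Pla2g3+/+ arrays, and Dhcr7 differed by −0.84 with challenge there (1.79-fold lower) and by 0.14 in Pla2g3+/+ cells. Against the Pla2g3+/+ control array, the challenged array labelled Pla2g3-/- was lower by −0.39. Between genotypes it differed by 0.45 without challenge and by −0.52 with it.

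Hsd17b7, a sterol ketone reductase of the same stretch, was the 1 exception of the 8. It read 352 and 408 intensity units on the Pla2g3+/+ control and challenged arrays and 291 and 473 on those labelled Pla2g3-/-. Both challenged arrays were above both controls, with differences of 0.35 and 0.59, the latter just past 1.5-fold and at 0.43 against the Pla2g3+/+ control array. A second probe gave 0.37 and 0.54. The other 6 genes stayed between −0.05 and −0.28 for challenge in cells labelled Pla2g3-/-. They were Cyp51 (the lanosterol demethylase, −0.28), Msmo1 (a methyl sterol oxidase, −0.28), Tm7sf2 (a sterol reductase, −0.27), Nsdhl (a sterol dehydrogenase, −0.20), Ebp (the sterol isomerase, −0.17) and Sc5d (the sterol desaturase, −0.05).

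Among the regulators, Insig1 stood apart from the other 4. INSIG1 holds SCAP in the endoplasmic reticulum, and its own gene is a known SREBP target. The Insig1 probe (mm9, chromosome 5 from 28404246 to 28404305) read 423 and 363 intensity units on the Pla2g3+/+ control and challenged arrays and 495 and 304 on those labelled Pla2g3-/-. As for Dhcr7, the arrays labelled Pla2g3-/- held the highest and the lowest value. Insig1 differed by −0.81 with challenge in cells labelled Pla2g3-/- (1.76-fold lower) and by −0.09 in Pla2g3+/+ cells. Set against the Pla2g3+/+ control array instead, the former was −0.47.

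Insig2, which does the same work and is not under the same control, differed by −0.05 in Pla2g3+/+ cells and by −0.01 in cells labelled Pla2g3-/-. Scap had the smallest range of all 30 genes, 0.06 over the 4 arrays. Srebf1, the gene of SREBP-1, read 459 and 524 intensity units on the Pla2g3+/+ control and challenged arrays and 407 and 433 on those labelled Pla2g3-/-. The Pla2g3+/+ challenged array was the highest, and Srebf1 differed by 0.33 with challenge in those cells and by −0.41 between the challenged arrays. Srebf2, the gene of SREBP-2, differed by 0.06 and −0.14 with challenge and by −0.34 between the challenged arrays, where its second probe gave 0.05. An array measures transcripts, so the cleavage of SREBP proteins was not measured.

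Stard4 encodes a small carrier that moves sterol between membranes. It read 1469 and 1326 intensity units on the Pla2g3+/+ control and challenged arrays and 1556 and 1106 on those labelled Pla2g3-/-. The challenged array labelled Pla2g3-/- was the lowest and its control the highest. Stard4 differed by −0.60 with challenge in cells labelled Pla2g3-/- (1.52-fold lower) and by −0.01 in Pla2g3+/+ cells. The former was −0.40 against the Pla2g3+/+ control array. A second probe, with 49.2 to 65.8 units, gave −0.53 and 0.42.

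**Figure D4:**
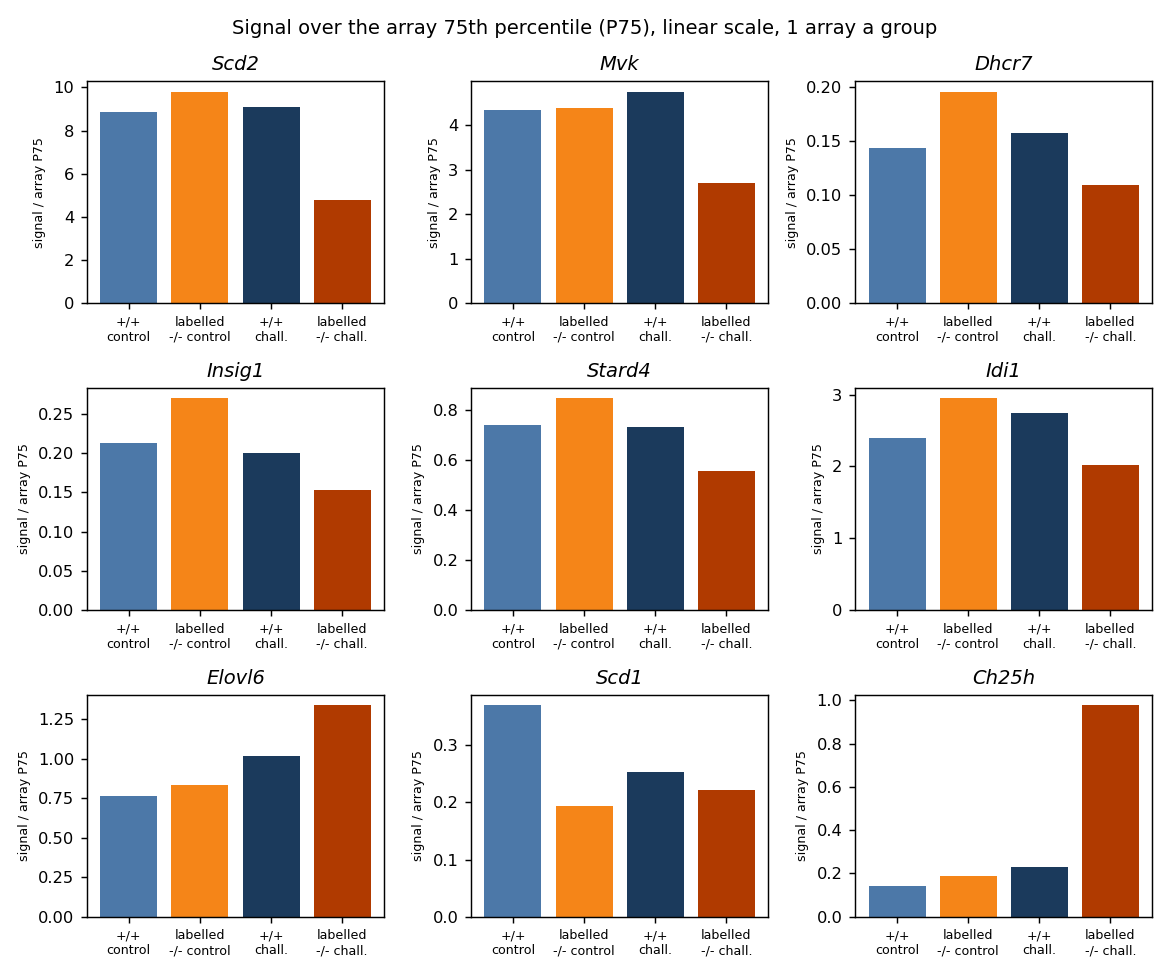
The bars give signal over the array's 75th percentile (linear y axis from 0, its own scale for each gene) for 9 genes on the 4 arrays, 1 bar an array with no error bar since each group has 1 array. Scd2 and Mvk are low on the challenged array labelled Pla2g3-/- alone, Dhcr7, Insig1, Stard4 and Idi1 are highest on the control and lowest on the challenged array with that label, and Elovl6 and Ch25h are highest on that challenged array.

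The 6 fatty acid genes did not move as 1 group. After challenge in cells labelled Pla2g3-/-, 4 had a higher level and 2 a lower one, with a median of 0.23 and a range from −1.03 to 0.68. Against the Pla2g3+/+ control array, 3 were higher and 3 lower, with a median of −0.018. Scd2 encodes a stearoyl-CoA desaturase, which puts the double bond into oleate. Its probe (mm9, chromosome 19 from 44381024 to 44381083) read 17611 and 16465 intensity units on the Pla2g3+/+ control and challenged arrays and 17983 and 9472 on those labelled Pla2g3-/-. Here 3 arrays lay close together, and the challenged array labelled Pla2g3-/- stood below them by −1.03 against its control (2.05-fold lower) and by −0.93 against the Pla2g3+/+ challenged array (1.90-fold lower). Scd2 was the 1 gene of the 30 at least 2-fold lower in that challenge comparison, against 2.64% of all genes, and none was at least 2-fold higher, against 2.93%. With the array median as scaling point, or with the other control array, Scd2 was less than 2-fold lower.

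Scd1, the paralogue of Scd2 with a neighbouring probe on chromosome 19, had another pattern. It read 735 and 459 intensity units on the Pla2g3+/+ control and challenged arrays and 354 and 440 on those labelled Pla2g3-/-. The Pla2g3+/+ control array was the high one, and the other 3 lay between 354 and 459. Scd1 differed by −0.94 between the control arrays (1.92-fold lower in cells labelled Pla2g3-/-), by −0.54 with challenge in Pla2g3+/+ cells and by 0.20 with challenge in cells labelled Pla2g3-/-. With the control arrays exchanged, the challenge differences were 0.40 and −0.74, so their signs rest on 1 control array. It was the 1 gene of the 30 with a difference of challenge effects at least 1.5-fold higher, 0.75.

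Elovl6, the elongase that lengthens palmitate to stearate, was the gene with the largest positive challenge difference in both genotypes. It read 1518 and 1838 intensity units on the Pla2g3+/+ control and challenged arrays and 1533 and 2649 on those labelled Pla2g3-/-. Both challenged arrays were above both controls, and the differences were 0.41 (1.33-fold) and 0.68 (1.60-fold). Fasn, the fatty acid synthase, read 325 and 306 units on the Pla2g3+/+ arrays and 243 and 375 on those labelled Pla2g3-/-, which gave 0.04 and 0.51, the latter 0.21 against the Pla2g3+/+ control array. Acaca, the carboxylase that makes malonyl-CoA, differed by 0.37 and 0.25, and its next brightest probe, placed on chromosome 12 and not on chromosome 11 with the gene, by 0.37 and 0.18. Acly, which supplies cytosolic acetyl-CoA from citrate, differed by −0.06 and −0.24. A second, dimmer Acly probe, with 68.0 to 85.4 units, gave 0.43 and 0.005.

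Of the adipocyte markers, cells in which Scd1 and Fasn are high, 8 of 10 were well above background on 4 arrays, Adipoq on 1 and Lep on none. The 8 had a median of −0.54 for challenge in Pla2g3+/+ cells and of −0.04 in cells labelled Pla2g3-/-. Cfd differed by −1.59 and −0.19 with challenge and Car3 by −1.57 and −1.81, while Fabp4 differed by −0.07 and 0.59. The summed level of the adipocyte list was 1.0 to 1.4. The summed level of the alveolar type 2 list, another cell that makes much lipid, was 159, 181, 177 and 187 on the Pla2g3+/+ control, the control labelled Pla2g3-/-, the Pla2g3+/+ challenged and the challenged array labelled Pla2g3-/-. In the same order, the summed level was 827, 849, 847 and 726 for the club cell genes, 58.2, 45.8, 63.2 and 88.9 for the neutrophil genes, and 5.7, 13.2, 10.7 and 20.0 for the macrophage genes. Most of the neutrophil sum was Csf3r on 3 of the arrays, and without it the sum of the other 4 genes was 4.7, 8.6, 15.8 and 56.2. The challenged array labelled Pla2g3-/- thus held the most neutrophil and macrophage signal and the least club cell signal. The 6 club cell genes had a median of −0.22 for challenge in cells labelled Pla2g3-/- and of −0.22 between the challenged arrays. The 30 genes had −0.21 and −0.20. Between the control arrays the club cell median was 0.03, beside 0.14 for the 30 genes. Other epithelial lists did not fall alike. For challenge in cells labelled Pla2g3-/- the medians were −0.005 (general epithelial), 0.16 (ciliated), 0.02 (basal) and 0.10 (alveolar type 2). Between the challenged arrays they were −0.08, −0.15, −0.01 and 0.08. In cells taken in bulk, fewer cells of a type and less RNA per cell cannot be told apart. The part of these cell types in the sterol gene values was not tested.

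The additive fit over all 4 arrays asked whether a gene differed with challenge, or with genotype, in the same way on both sides. It was fitted with limma on 26381 genes with 1 residual degree of freedom. For challenge, 1 gene was called higher at an adjusted p under 0.05 (0.00379% of genes) and 0 lower. That gene was Cxcl5, a neutrophil-attracting chemokine, named after its value was seen (6.75, SE 0.13, limma adjusted p 0.0226). None of the 30 genes was called. At an unadjusted p under 0.05, 4 of the 30 were past the threshold, against 13.8% of all genes. These were Elovl6 (0.55, SE 0.12), Hsd17b7 (0.47, SE 0.13), Acaca (0.31, SE 0.10) and Mvd (0.32, SE 0.11), all higher. The lowest adjusted p in limma among the 30 was 0.287, for Elovl6. For genotype, 0 genes were called and 11.4% had an unadjusted p under 0.05, which none of the 30 had. The lowest limma adjusted p among them was 0.465, for Scd1. A gene that differs in opposite ways in the 2 genotypes counts as error in this fit.

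Genes next to these in the pathway were read from lists of their own, and their counts stand against the all-gene shares given above. At least 1.5-fold higher and lower, those were 3.58% and 4.26% for challenge in Pla2g3+/+ cells, 6.42% and 8.72% in cells labelled Pla2g3-/-, and 6.73% and 6.01% between the challenged arrays. In a list of about 10 genes, a single gene moves the share far, so small counts say little. Of 8 remaining cholesterol enzymes, 2 were at least 1.5-fold higher and 0 lower with challenge in each genotype. The count of higher genes was above the shares of 3.58% and 6.42%, on a short list. Ch25h, which makes 25-hydroxycholesterol, an inhibitor of SREBP release, stood apart: it read 280 and 413 intensity units on the Pla2g3+/+ control and challenged arrays and 343 and 1936 on those labelled Pla2g3-/-. The challenged array labelled Pla2g3-/- was far above the other 3, by 2.39 against its control and by 2.10 against the Pla2g3+/+ challenged array. Cyp7b1, which clears 25-hydroxycholesterol, differed by 0.80 and 0.62 with challenge. Macrophages also make Ch25h, and the summed level of the macrophage genes was highest on the same array. Their part in the Ch25h value was not tested.

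Of 9 sterol uptake genes, 1 was at least 1.5-fold higher with challenge in each genotype, and 0 were lower. That gene was Lrp8, an apolipoprotein E receptor with 42.3 to 123 intensity units, at 1.68 and 0.63. With normexp background correction it was at 0.98 and 0.32. Between the challenged arrays the 9 genes had a median of −0.26. Lipa, the lysosomal lipase, was higher by 0.81 between the control arrays.

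Of 10 genes of sterol efflux, storage and LXR response, 0 were at least 1.5-fold different with challenge in either genotype. Between genotypes, Abcg1, a sterol exporter, was higher by 0.77 on the control array, and Soat1, which esterifies sterol, by 0.63 on the challenged array. None of 9 genes of SREBP processing and enzyme turnover was at least 1.5-fold different in any of the 4 comparisons. They include Mbtps1 and Mbtps2, the proteases that cut SREBP, at 0.06 and 0.20 with challenge in Pla2g3+/+ cells and −0.17 and −0.14 in cells labelled Pla2g3-/-.

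Of 22 further genes of fatty acid and lipid synthesis, 21 were measured. With challenge in cells labelled Pla2g3-/-, 1 of them was at least 1.5-fold higher and 3 lower, and between the challenged arrays 0 were higher and 4 lower. The 4 were Acacb (the mitochondrial acetyl-CoA carboxylase, −1.46), Scd3 (another stearoyl-CoA desaturase gene, −0.77), Fads1 (a desaturase of polyunsaturated fatty acids, −0.59) and Mlxipl (the carbohydrate response factor, −0.59). Acacb read 647 and 553 intensity units on the Pla2g3+/+ control and challenged arrays and 345 and 220 on those labelled Pla2g3-/-, so both arrays with that label were below both others. Its probes were not alike, and with their mean the difference between the challenged arrays was −0.33. For Scd3 that value was −0.47. Lpin1, a phosphatidate phosphatase, was highest on the control array labelled Pla2g3-/-, 1.34 above the Pla2g3+/+ control.

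Of 13 fatty acid oxidation genes, which break down what the others build, 0 were at least 1.5-fold higher with challenge. In Pla2g3+/+ cells 1 was lower, and in cells labelled Pla2g3-/- 3 were. Pdk4, a kinase that shuts glucose carbon out of mitochondria and marks fatty acid use, read 1435 and 321 intensity units on the Pla2g3+/+ control and challenged arrays and 597 and 330 on those labelled Pla2g3-/-. Both challenged arrays were below both controls, by −2.03 and −0.96. Exchanging the control arrays gave −0.88 and −2.12. Ppara, the nuclear receptor of fatty acid oxidation, differed by −0.48 and −0.94, and Acadm, a dehydrogenase of medium chains, by −0.22 and −0.60.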

How the data were processed

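Per the labels, RNA pooled from 4 samples was labelled from 200 ng for each of the 4 arrays. Per the file headers, the deposited scanner files hold intensity values from Agilent Feature Extraction 11.5.1.1 (version also in the submitters' processing notes), with background subtracted, and probes placed on mm9. The authors' deposited value table holds intensity divided by each array's 75th percentile. From the deposited intensity, log2 values were taken, minus that percentile, control and outlier spots (128 to 155 an array) left out, and spots of 1 probe averaged. Gene names came from RefSeq (GRCm38.p6) by accession for 28330 of 39429 probes, and from the files for 11099. A gene took its brightest probe. Calls were at least 1.5-fold or 2-fold. Precision is limited by the number of arrays.

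The additive fit used limma 3.58.1 in R 4.3.3 (trend on the mean level, Benjamini-Hochberg over all genes, threshold 0.05, two-sided) and was tested on simulated data. Counts and figures were made in Python 3.11.15. Named genes were all 30, in full those with the 4 largest differences per direction and effect, and up to 4 genes of each other list. The 30 genes and all lists were chosen with earlier results of these data known. Alternatives were normexp background correction (offset 50), quantile normalization, the array median as scaling point, the mean of all probes, the deposited table, genes well above background on 4 arrays, and no variance trend.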

Additional observations from a re-analysis of the deposited data

Results flagged for a closer look

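Several genes had effects of opposite sign in the 2 settings that could be compared, each setting with 1 pair of arrays, and the difference was not tested. Genes were taken where both effects were larger than the scanner error of 0.20. The share of all genes that meet this rule was not counted, so the number of genes named here cannot be called unusual. For challenge, Fdps (farnesyl diphosphate synthase) was higher by 0.33 in Pla2g3+/+ cells and differed by −0.22 in cells labelled Pla2g3-/-. With the control arrays exchanged these were 0.12 and −0.016. For genotype, 4 genes were higher in cells labelled Pla2g3-/- without challenge and lower with it. Idi1 differed by 0.30 without and −0.45 with challenge. Sqle differed by 0.22 and −0.25, and Dhcr7 by 0.45 and −0.52. Insig1 differed by 0.34 and −0.39. The median of all 30 genes was 0.14 without and −0.20 with challenge.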

How the results depend on the processing

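Of 138 alternative values of the medians and counts, 123 stayed within 1.5 times (counts) or within the SD of repeated spots (medians), and 15 did not. Of 960 alternative values of single differences of the 30 genes, 936 lay within the scanner error of the value reported. Many of these alternatives could hardly move a value. All 30 genes were well above background on 4 arrays, so that setting repeated their reported differences, medians and counts. The deposited table is the same signal over nearly the same percentile, and the array median shifts all genes of an array alike. Both totals therefore overstate how far the values were put to a check. No paired analysis was possible because each group has 1 array. The number at least 1.5-fold higher with challenge in cells labelled Pla2g3-/- was 1 with normexp, 1 with the mean of probes and 1 with the Pla2g3+/+ control array, in place of 2. The number with a difference of challenge effects at least 1.5-fold higher was 0 with normexp, in place of 1. With the control arrays exchanged, a choice made after seeing the data, the median was −0.036 for Pla2g3+/+ challenge and −0.066 for challenge labelled Pla2g3-/-, with 3 genes at least 1.5-fold lower. The additive fit called 4 genes higher with challenge under normexp, 2 under quantile normalization, 4 with the array median, 0 without a trend and 5 with genes on 4 arrays. For genotype it called 8 higher and 11 lower under normexp, and 1 lower with genes on 4 arrays. None of the 30 genes was called under any of these limma settings. Among differences of at least 1.5-fold, the sign turned for Acacb (difference of challenge effects 0.22 with the mean of probes) and, with the Pla2g3+/+ control array, for Elovl7 (−0.017) and Lpin1 (0.72) with challenge labelled Pla2g3-/-. Of all 150 differences of the 30 genes, 14 changed sign in some alternative without exchange, and 2 of them, both of Fdft1, were larger than the scanner error. With controls exchanged, 9 of 30 changed sign for Pla2g3+/+ challenge and 5 of 30 for challenge labelled Pla2g3-/-, Scd1 among both. Of 70 other pathway genes, 23 and 17 did. Causes were not tested. A difference near the scanner error of 0.20 can show little, and that nearly fixed value leaves out animals and pools.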
